A study of Mus musculus with 16 samples.

Results

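The metalloproteinases and their inhibitors are described here as a set of 43 genes of the 22367 protein-coding genes in the mouse annotation used. They were chosen by symbol alone: every Adamts and Adamtsl gene, every numbered Timp gene, and every numbered Mmp gene apart from 8 left out by name (Mmp3, Mmp7, Mmp8, Mmp10, Mmp12, Mmp13, Mmp20 and Mmp27). The rule uses no binding or chromatin value, although it was written with earlier results of these data known, and all 43 genes were kept whatever their values. The set held 4 Timp inhibitors, 15 matrix metalloproteinases (MMPs), 19 ADAMTS proteases and 5 ADAMTS-like genes.

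These enzymes cut the extracellular matrix outside the cell, and each needs a zinc ion in its active site. MMPs such as gelatinases and membrane-anchored collagenases degrade collagens and other matrix proteins, ADAMTS enzymes trim procollagens and cleave large proteoglycans, and ADAMTS-like proteins share the matrix-binding modules but have no protease domain. Timp proteins bind the active site of MMPs and of some ADAMTS enzymes and block it. Bone-forming cells, which lay down a collagen matrix, can make both proteases and inhibitors.

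The data were chromatin immunoprecipitation sequencing peak lists from a mouse pre-osteoblast line, MC3T3-E1, in 2 states. The differentiated cells had been kept for 15 days in medium to which 50 µg/mL ascorbic acid and 10 mM glycerol-2-phosphate were added, and their mineralised matrix was removed before chromatin was prepared. No dose of either agent is listed for the undifferentiated cells. Both states were at passages 5 to 12 and had been given ethanol vehicle for 3 h, so vehicle is common to all 14 lists, and both come from 1 established line grown in culture. Antibodies recognised RUNX2 (the runt-domain factor without which bone does not form), C/EBPβ (a leucine zipper factor) and the histone marks H4K5Ac, H3K9Ac, H3K4me1, H3K4me3 and H3K36me3. In textbook terms H3K4me3 marks active promoters, H3K4me1 enhancers and promoter flanks, the 2 acetylation marks active regulatory DNA, and H3K36me3 the bodies of transcribed genes.

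Each antibody and state had 1 list that merged biological replicates, so no difference below had a replicate check and no test between states was possible. Sequencing depth is unknown, because the lists hold no read counts. RUNX2 had 6272 peaks in differentiated cells and 12674 in undifferentiated cells, and C/EBPβ had 10847 in differentiated cells and 15622 in undifferentiated cells. In differentiated cells regions covered 86.5 Mb for H3K9Ac, 265 Mb for H4K5Ac, 344 Mb for H3K4me1, 21.8 Mb for H3K4me3 and 350 Mb for H3K36me3. In undifferentiated cells they covered 52.6 Mb for H3K9Ac, 340 Mb for H4K5Ac, 342 Mb for H3K4me1, 26.4 Mb for H3K4me3 and 352 Mb for H3K36me3. These list sizes move with every count below, and their part in each count was not tested. Osteoblast-lineage marker genes carried H3K36me3 over at least 50% of their length in 9 of 10 cases in differentiated cells and 7 of 10 in undifferentiated cells, against 0 of 5 in both states for adipocyte, muscle, endothelial, epithelial and haematopoietic markers and, for chondrocyte markers, 0 of 5 in differentiated cells and 1 of 5 in undifferentiated cells.

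A peak was given to the gene whose transcription start site (TSS) was nearest, within 100 kb. Undifferentiated peaks that overlapped a differentiated peak of the same factor by at least 1 bp were called kept, those without such an overlap lost, and differentiated peaks without an undifferentiated partner gained. The core motif bound by RUNX proteins was searched as TGTGGT or TGCGGT on both strands of each fixed-width peak. The 6 peaks printed here are examples of that motif: the upstream promoter peaks of Mmp14 and Adamtsl4 that held it, and the kept peaks with the motif in Adamtsl3, the gene with most RUNX2 peaks. Letters are the plus strand of mm9, 5′ to 3′, and capitals mark the RUNX motif (ACCACA and ACCGCA are its reverse complements).
Mmp14 promoter, lost, chr14:55050198-55050398: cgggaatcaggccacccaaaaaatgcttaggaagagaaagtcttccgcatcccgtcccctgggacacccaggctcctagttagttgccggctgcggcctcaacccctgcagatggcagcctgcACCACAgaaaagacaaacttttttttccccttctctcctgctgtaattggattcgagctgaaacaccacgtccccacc
Adamtsl4 promoter, kept, chr3:95492149-95492349: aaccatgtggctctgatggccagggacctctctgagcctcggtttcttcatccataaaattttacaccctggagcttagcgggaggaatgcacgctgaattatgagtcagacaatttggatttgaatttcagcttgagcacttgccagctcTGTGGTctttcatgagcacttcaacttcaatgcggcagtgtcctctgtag
Adamtsl3 intron, kept, chr7:89535692-89535892: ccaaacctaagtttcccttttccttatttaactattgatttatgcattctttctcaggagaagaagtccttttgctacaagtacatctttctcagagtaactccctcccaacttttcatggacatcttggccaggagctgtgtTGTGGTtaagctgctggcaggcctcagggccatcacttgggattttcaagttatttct
Adamtsl3 intron, kept, chr7:89565587-89565787: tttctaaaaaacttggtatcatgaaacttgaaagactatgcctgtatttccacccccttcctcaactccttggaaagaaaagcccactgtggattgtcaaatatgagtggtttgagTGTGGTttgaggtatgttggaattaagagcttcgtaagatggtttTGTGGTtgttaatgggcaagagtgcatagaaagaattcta
Adamtsl3 intron, kept, chr7:89680069-89680269: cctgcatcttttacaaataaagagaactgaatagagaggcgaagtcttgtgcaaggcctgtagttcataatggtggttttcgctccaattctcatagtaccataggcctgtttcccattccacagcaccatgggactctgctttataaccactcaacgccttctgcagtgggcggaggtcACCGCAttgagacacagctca
Adamtsl3 intron, kept, chr7:89682591-89682791: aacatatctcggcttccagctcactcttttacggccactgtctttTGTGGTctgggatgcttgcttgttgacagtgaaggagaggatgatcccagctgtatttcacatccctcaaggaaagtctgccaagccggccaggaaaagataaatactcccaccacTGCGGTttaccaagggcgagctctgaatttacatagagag
The Mmp14 peak lay 143 bp upstream of its TSS and the Adamtsl4 peak 409 bp upstream, both outside any exon. Promoter peaks of Adamts4 and Mmp16 also held 1 RUNX motif each, but they overlapped first-exon untranslated sequence and their letters are not shown. The motif was present in 39 of the 64 RUNX2 sites of the set (60.9%), against 61.3% of the RUNX2 sites of all genes. Of all RUNX2 peaks, 71.1% held it in differentiated cells and 61.7% in undifferentiated cells, and of windows of the same width 1 kb upstream 16.9% held it for the differentiated list and 16.8% for the undifferentiated list. Within the set the motif was found in 8 of 12 gained sites (66.7%, against 65.6% over all genes), 17 of 27 kept sites (63.0%, against 71.6%) and 14 of 25 lost sites (56.0%, against 54.7%). A match describes the letters only.

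RUNX2 was found near fewer of these genes in differentiated cells than in undifferentiated cells. In differentiated cells 16 of the 43 genes (37.2%, exact 95% interval 23.0 to 53.3) had a RUNX2 peak, against 14.9% of all genes. In undifferentiated cells 22 genes (51.2%, 35.5 to 66.7) had one, against 27.2% of all genes. The set had 39 peaks in differentiated cells and 52 in undifferentiated cells. Fewer peaks in differentiated cells were counted at 14 genes, against 19.7% of all genes, and more peaks at 5 genes, against 2.91% of all genes. The 5 were Timp3, Timp4, Mmp2, Adamts4 and Adamts17. When peaks in the gene body plus 10 kb were counted instead, the number of RUNX2 peaks was the same in both states at 7 of the genes that differ by nearest TSS (Timp4, Mmp14, Adamts4, Adamts5, Adamts6, Adamts8 and Adamtsl4). No RUNX2 peak was assigned to 20 of the 43 genes in either state (46.5%, 31.2 to 62.3), against 71.0% of all genes. The intervals treat each gene or peak as 1 draw and cover counting error only.

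Of the 52 undifferentiated RUNX2 peaks, 27 were kept (51.9%, 37.6 to 66.0), against 36.1% (35.2 to 37.0) over all genes. The 2 shares rest on different mixes of sites, since fewer of the set's RUNX2 sites were at promoters. Away from promoters 24 of 44 were kept in the set (54.5%, 38.8 to 69.6), against 39.4% over all genes, and at promoters 3 of 8 (37.5%, 8.52 to 75.5), against 28.4%, and both intervals include the share over all genes. Within 20 kb of the TSS 12 of 27 were kept (44.4%, 25.5 to 64.7), against 33.8% over all genes, which the interval also includes. Counted in the gene body plus 10 kb, 26 of 51 were kept (51.0%, 36.6 to 65.2), against 33.6% over all genes. That interval does not include the share over all genes. Of the 39 differentiated peaks, 27 were already present (69.2%, 52.4 to 83.0), against 74.6% over all genes, and 12 were gained. Adamtsl3 alone had 9 of the 39 differentiated peaks and 12 of the 52 undifferentiated ones, and without it the kept share was 55.0%. The genes of the set are long, with a median of 29.58 kb against 15.43 kb for all genes, and their TSSs are nearest to more DNA, with a median of 54.54 kb against 45.53 kb. Per megabase of DNA nearest to their TSSs, the set had 7.96 RUNX2 peaks in differentiated cells and 10.6 in undifferentiated cells, against 3.20 in differentiated cells and 6.60 in undifferentiated cells for all genes. Among genes with H3K4me3 at a promoter in either state, 10 of 17 members (58.8%) had a RUNX2 peak in differentiated cells and 14 (82.4%) in undifferentiated cells, against 24.1% (differentiated) and 45.1% (undifferentiated) of 9265 such genes.

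A C/EBPβ peak was assigned to 19 genes in differentiated cells, against 21.7% of all genes, and to 18 genes in undifferentiated cells, against 27.6% of all genes. Peaks numbered 43 in differentiated cells and 59 in undifferentiated cells. Of the 59, 21 were kept (35.6%, 23.6 to 49.1), against 43.7% over all genes, a share inside that interval. Within 20 kb of the TSS the order was reversed, with 13 of 27 kept in the set (48.1%, 28.7 to 68.1) and 45.4% over all genes. Under the other assignment and sharing rules the set's share stayed below that over all genes. At promoters 5 of 6 were kept (83.3%, 35.9 to 99.6), against 46.9% over all genes. Away from promoters 16 of 53 were kept (30.2%, 18.3 to 44.3), against 43.0%. Of the 43, 22 were gained. Fewer C/EBPβ peaks were counted at 9 genes, against 16.0% of all genes, and more at 5 genes, against 6.13% of all genes. Those 5 were Mmp28, Adamts4, Adamts10, Adamts12 and Adamts17. Kept shares differ between the 2 factors in point value, and their intervals overlap.

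**Figure D1:**
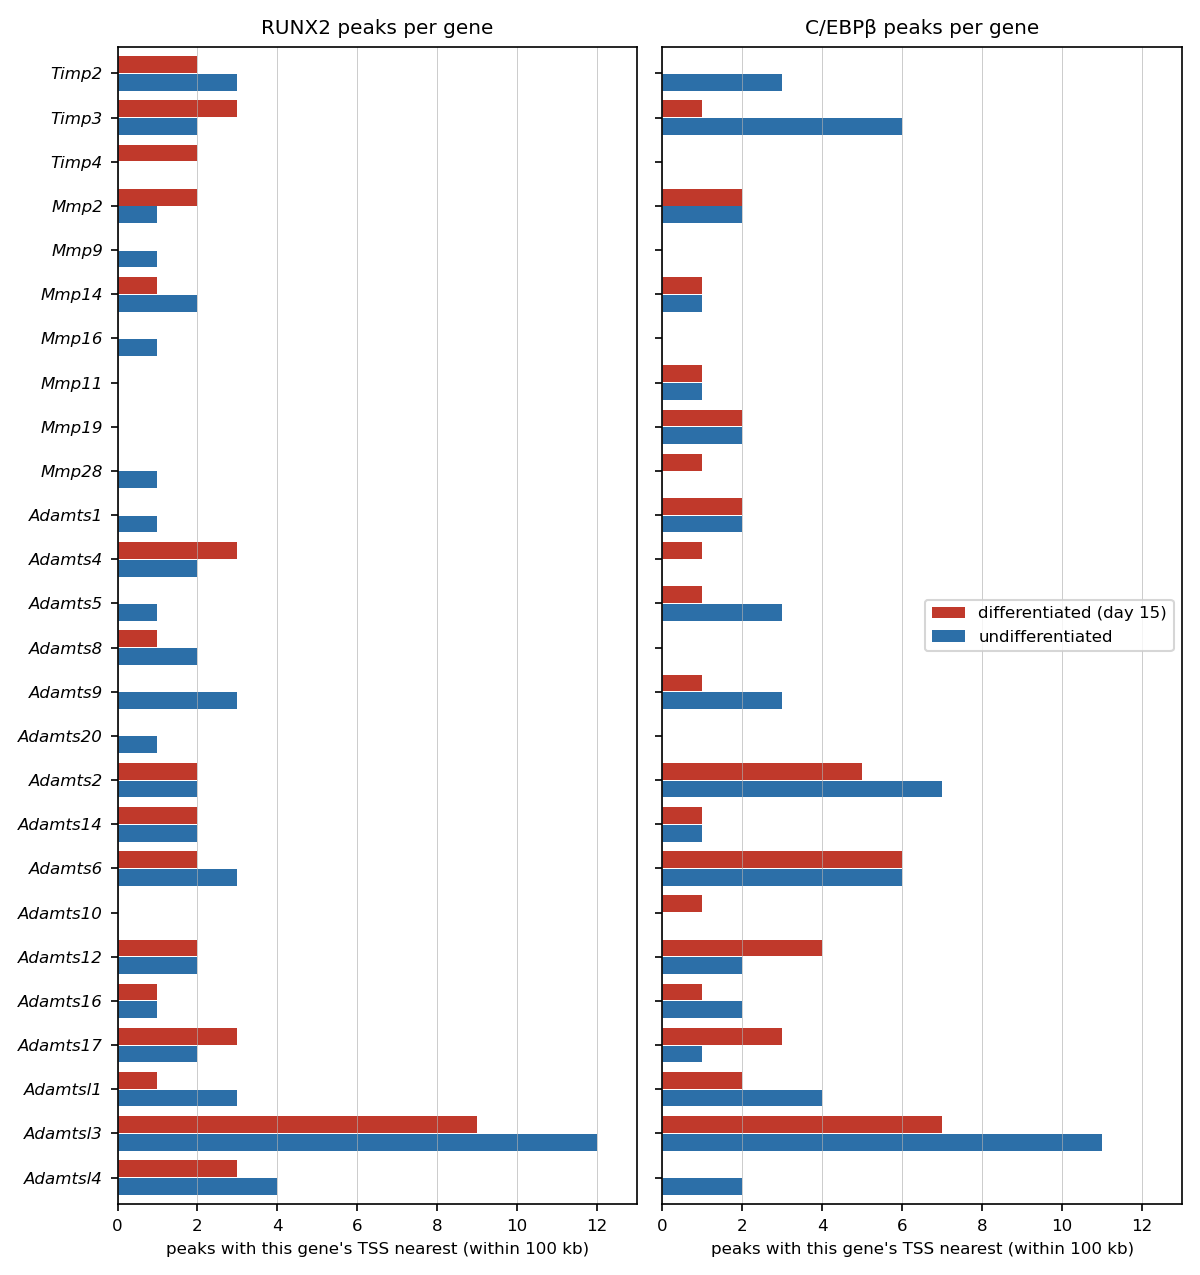
Peaks of RUNX2 (left) and C/EBPβ (right) assigned to each gene of the set that had at least 1 peak of either factor, with differentiated cells in red above undifferentiated cells in blue. The x axis counts peaks, from 1 merged list per bar colour and factor. Adamtsl3 has 9 RUNX2 peaks in differentiated cells and 12 in undifferentiated cells, Timp4 has 2 RUNX2 peaks in differentiated cells and 0 in undifferentiated cells, and Timp3 has 1 C/EBPβ peak in differentiated cells and 6 in undifferentiated cells.

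Nearly all RUNX2 sites of the set lay in H3K4me1 and H4K5Ac regions, at shares close to those of RUNX2 sites of all genes. All 64 sites lay in an H3K4me1 region in differentiated cells, against 98.1% over all genes, and 61 did in undifferentiated cells (95.3%, against 95.9%). In an H4K5Ac region lay 60 in differentiated cells (93.8%, against 93.8%) and 63 in undifferentiated cells (98.4%, against 96.0%). H3K9Ac covered 47 sites in differentiated cells and 30 in undifferentiated cells, a difference also present over all genes (76.8% of sites in differentiated cells and 55.7% in undifferentiated cells). H3K4me3 covered 7 sites in differentiated cells (10.9%, against 26.0% over all genes) and 10 in undifferentiated cells (15.6%, against 26.9%). The sites lay in introns in 37 cases (57.8%, against 34.9% over all genes), between genes in 19, within 1 kb of a TSS in 8 (12.5%, against 28.8%) and in other exonic sequence in 0. Their median distance from the TSS was 20454 bp, against 9387 bp over all genes. Of the 8 promoter sites, 3 were kept (2 at Adamts4 and 1 at Adamtsl4) and 5 were lost, and no gained site lay at a promoter.

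At 12 of the 27 kept RUNX2 sites a C/EBPβ peak overlapped in undifferentiated cells (44.4%, against 38.3% over all genes), and at 2 of those 12 a C/EBPβ peak was also there in differentiated cells (16.7%, 2.09 to 48.4). Over all genes that share was 44.2% of 1500 sites, which lies within the interval of the set. The sites that kept RUNX2 without C/EBPβ included a pair upstream of Timp2, 1 in Timp3, 2 at Adamtsl4 and 2 in Adamtsl3. Of the 12 gained RUNX2 sites, 3 overlapped a C/EBPβ peak of differentiated cells (25.0%, against 18.7% over all genes), which was a gained one in each case: chr1:173190695-173190895 at the 3′ end of Adamts4, chr11:50567779-50567979 in an intron of Adamts2, and chr13:105289755-105289955 downstream of Adamts6.

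**Figure D2:**
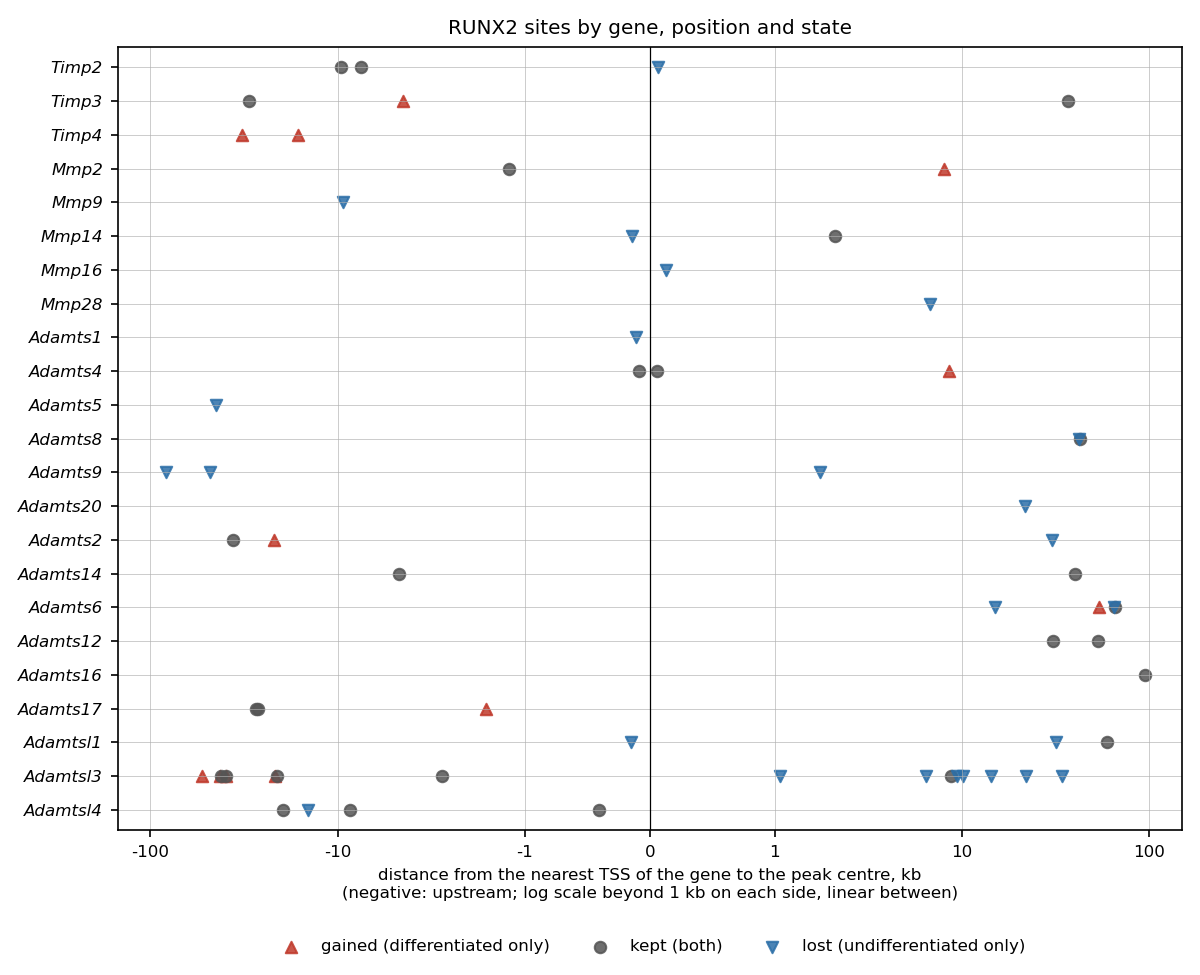
Every RUNX2 site of the set by gene (rows) and by distance from the nearest TSS of that gene to the peak centre (x axis, kb, negative upstream, linear within 1 kb and log beyond). Red triangles are the 12 gained, grey circles the 27 kept and blue triangles the 25 lost sites. Within 1 kb of a TSS there are 3 kept and 5 lost sites and no gained one.

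The inhibitors were the group in which RUNX2 peaks were more numerous after differentiation, 7 peaks at 3 of the 4 Timp genes in differentiated cells and 5 peaks at 2 genes in undifferentiated cells, while C/EBPβ had 1 peak there in differentiated cells and 9 in undifferentiated cells. Timp4, an inhibitor with restricted tissue expression, is the 1 gene of the set that had no RUNX2 peak in undifferentiated cells and had peaks in differentiated cells (1 of 43, against 1.81% of all genes). Its 2 gained peaks, chr6:115218016-115218216 and chr6:115234276-115234476, lay 16249 bp and 32509 bp upstream, the nearer one in an intron of Syn2, a synapsin gene that surrounds Timp4 on the other strand, and each held 1 RUNX motif. Timp4 itself had H3K4me1 at its promoter in differentiated cells only, no H3K36me3 in either state and no H3K4me3, and H4K5Ac covered 0.0% of it in differentiated cells and 27.4% in undifferentiated cells. Neither peak lies in the gene body plus 10 kb, where Timp4 had 0 RUNX2 peaks in both states, and 1 lies within 20 kb. Nearness to its TSS does not show that these peaks act on Timp4.

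Timp3, the inhibitor that stays bound to the matrix, had 3 RUNX2 peaks in differentiated cells and 2 in undifferentiated cells, both of which were kept, and the gained one lay 4480 bp upstream. C/EBPβ had 1 peak there in differentiated cells and 6 in undifferentiated cells. Timp3 lies inside Syn3, and H3K36me3 covered 95.9% of Timp3 in differentiated cells and 97.2% in undifferentiated cells, and the whole of Syn3 was covered to 11.5% in differentiated cells and 12.9% in undifferentiated cells. Timp2, which also helps to activate the Mmp2 precursor at the cell surface, had 2 RUNX2 peaks in differentiated cells and 3 in undifferentiated cells, while C/EBPβ had 0 peaks in differentiated cells and 3 in undifferentiated cells. When peaks in the gene body plus 10 kb were counted instead, the direction at Timp2 reversed, with 6 RUNX2 peaks in differentiated cells and 5 in undifferentiated cells. Its lost RUNX2 peak was at the promoter, and both kept peaks, 7554 bp and 9645 bp upstream, overlapped C/EBPβ in undifferentiated cells only. H3K9Ac covered 56.3% of the Timp2 body in differentiated cells and 21.3% in undifferentiated cells, and H3K36me3 covered 97.9% in differentiated cells and 98.3% in undifferentiated cells. That H3K36me3 region also reaches Usp36 in both states.

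Timp1, a broadly acting secreted inhibitor, had no peak of either factor in either state, yet it was the gene of the set with H3K36me3 lower by at least 20 percentage points. H3K36me3 covered 20.6% of Timp1 in differentiated cells and 70.4% in undifferentiated cells, and H3K9Ac covered 74.5% in both. With the upper 50% of regions by score no H3K36me3 region was left at Timp1 in either state, so the difference of 0.0 points there compares nothing. In the full lists the H3K36me3 region ran over chrX:20450919-20453843 in differentiated cells and chrX:20448647-20454234 in undifferentiated cells. It also lies in Syn1, which surrounds Timp1 on the other strand, and the mark cannot be told apart between the 2 genes. Syn1 as a whole was covered to 6.2% in differentiated cells and 11.4% in undifferentiated cells. Neither Syn1 nor Timp1 had promoter H3K4me3 in either state.

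The gelatinases differed in opposite directions by count. Mmp2, the gelatinase made by many mesenchymal cells, had 2 RUNX2 peaks in differentiated cells and 1 in undifferentiated cells, but 2 in differentiated cells and 3 in undifferentiated cells when peaks in the gene body plus 10 kb were counted. The kept peak lay 1217 bp upstream and overlapped a gained C/EBPβ peak, and the gained peak, chr8:95359112-95359312, lay in an intron 7985 bp downstream and held 2 RUNX motifs. H3K36me3 covered 94.0% of Mmp2 in differentiated cells and 95.6% in undifferentiated cells. Mmp9, the gelatinase best known in bone from osteoclasts, had 0 RUNX2 peaks in differentiated cells and 1 in undifferentiated cells, 9391 bp upstream. Its body held no H3K36me3 in either state, and of the 4 promoter marks it had H3K4me1 alone.

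Among the 6 membrane-type MMPs, RUNX2 peaks were at 1 gene in differentiated cells and 2 in undifferentiated cells, with 1 peak in differentiated cells and 3 in undifferentiated cells. Mmp14, the membrane-anchored collagenase that activates the Mmp2 precursor, had 1 RUNX2 peak in differentiated cells and 2 in undifferentiated cells. The promoter peak printed above was lost, while the kept peak, chr14:55052431-55052631, lay 2090 bp into the gene and held 2 RUNX motifs. Over the same gene 3 marks were broader in differentiated cells: H3K9Ac covered 72.6% in differentiated cells against 37.6% in undifferentiated cells, H4K5Ac 100.0% in differentiated cells against 59.4% in undifferentiated cells, and H3K4me1 100.0% in differentiated cells against 73.3% in undifferentiated cells. H3K4me3 was narrower in differentiated cells, with 34.4% in differentiated cells against 49.3% in undifferentiated cells, and H3K36me3 covered 100.0% of Mmp14 in both. The H3K36me3 region also reaches Mrpl52 in both states. Mmp16, another membrane-type enzyme, had 0 RUNX2 peaks in differentiated cells and 1 in undifferentiated cells, at chr4:17780268-17780468, 130 bp past a TSS. H4K5Ac at its promoter was found in undifferentiated cells only, and it had no H3K36me3. Mmp17, a membrane-type enzyme held by a lipid anchor, had H3K9Ac, H4K5Ac and H3K4me1 at its promoter in differentiated cells only, with no peak of either factor, no H3K4me3 and no H3K36me3.

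Of the 7 remaining MMPs, RUNX2 was at 0 genes in differentiated cells and 1 in undifferentiated cells. That gene was Mmp28 (epilysin), whose 1 RUNX2 peak in undifferentiated cells lay 6763 bp downstream of a TSS and was lost. Mmp28 had H3K4me3 and H3K9Ac at the promoter in differentiated cells only and a gained C/EBPβ peak 1249 bp downstream of a TSS. H3K36me3 covered 79.1% of its body in differentiated cells and 55.9% in undifferentiated cells. In differentiated cells the H3K36me3 region chr11:83254573-83267389 also reaches 1700020L24Rik. H3K4me1 went the other way, over 89.4% of the Mmp28 body in differentiated cells and 100.0% in undifferentiated cells. H4K5Ac covered 88.5% in differentiated cells and 89.0% in undifferentiated cells. Mmp19 kept both of its C/EBPβ peaks, 70 bp and 11225 bp upstream, and had H3K9Ac at its promoter in differentiated cells only. Mmp23 was covered to 100.0% by H3K36me3 in both states without any promoter mark. That region, chr4:154999479-155041529 in differentiated cells and chr4:154999627-155036260 in undifferentiated cells, also spans Cdk11b and Mib2, so the cover cannot be told apart from its neighbours'. Mmp21 was likewise covered to 49.3% in differentiated cells and 42.6% in undifferentiated cells by a region that reaches in from 2700050L05Rik.

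The 7 proteoglycanase ADAMTS genes had RUNX2 at 2 genes in differentiated cells and 6 in undifferentiated cells, with 4 peaks in differentiated cells and 10 in undifferentiated cells. Adamts4, an aggrecanase that cleaves the cartilage proteoglycan aggrecan, had more RUNX2 peaks in differentiated cells by nearest TSS. It had 3 RUNX2 peaks in differentiated cells and 2 in undifferentiated cells, or 5 in both states when peaks in the gene body plus 10 kb were counted, and its promoter pair, chr1:173180366-173180566 and chr1:173182207-173182407, was kept. Its gained RUNX2 peak at the 3′ end overlapped a gained C/EBPβ peak by 166 bp. H3K9Ac covered 100.0% of Adamts4 in differentiated cells and 39.1% in undifferentiated cells, while H3K36me3 covered 82.0% of it in differentiated cells and 84.3% in undifferentiated cells.

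At Adamts9, which cleaves versican and aggrecan, RUNX2 had 0 peaks in differentiated cells and 3 in undifferentiated cells, and C/EBPβ had 1 in differentiated cells and 3 in undifferentiated cells. H3K36me3 covered 86.7% of it in differentiated cells and 99.6% in undifferentiated cells. Adamts1, also a versican-cleaving enzyme, had no RUNX2 peak in differentiated cells and 1 in undifferentiated cells, 110 bp upstream of a TSS, and 2 C/EBPβ peaks in each state. Adamts5, the other main aggrecanase, likewise had no RUNX2 peak in differentiated cells and 1 in undifferentiated cells, 44538 bp upstream. C/EBPβ had 1 peak there in differentiated cells, which was the kept promoter peak, and 3 in undifferentiated cells. H4K5Ac covered 69.4% of Adamts5 in differentiated cells and 100.0% in undifferentiated cells. Adamts20 had no RUNX2 peak in differentiated cells and 1 in undifferentiated cells, Adamts8 had 1 in differentiated cells and 2 in undifferentiated cells, and neither gene had H3K36me3. Adamts1, Adamts5 and Adamts9 kept H3K4me3 at a promoter and H3K36me3 over at least 86.7% of the body in both states, and no RUNX2 peak was assigned to them in differentiated cells.

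Among the procollagen N-proteinases, which remove the amino-terminal propeptide of fibrillar procollagens, Adamts2 differed widely in H3K36me3. The mark covered 86.0% of its 205490 bp in differentiated cells and 35.6% in undifferentiated cells, a difference of 50.4 points. In differentiated cells the region chr11:50549167-50640483, with 71909 bp in Adamts2, also reaches Zfp354c. In undifferentiated cells the regions at Adamts2 reached no other gene. The part of Zfp354c in this cover was not separated. Adamts2 had 2 RUNX2 peaks in each state, with 1 kept, 1 lost and 1 gained. When TSSs of every gene biotype competed, it had 1 RUNX2 peak more in differentiated cells than in undifferentiated cells. C/EBPβ had 5 peaks there in differentiated cells and 7 in undifferentiated cells, but 1 in differentiated cells and 0 in undifferentiated cells when TSSs of every gene biotype competed. The gained RUNX2 peak held 1 RUNX motif and overlapped a gained C/EBPβ peak by 141 bp, in a stretch that H3K9Ac covered in differentiated cells only. H3K9Ac covered 18.6% of the body in differentiated cells and 4.3% in undifferentiated cells. Adamts14 kept both of its RUNX2 peaks with H3K36me3 over 14.2% of it in differentiated cells and 28.6% in undifferentiated cells, and Adamts3 had no peak of either factor.

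In the other ADAMTS genes RUNX2 was at 4 genes in each state, with 8 peaks in each. Adamts17, linked in humans to a connective tissue disorder of short stature and eye lens defects, had 3 RUNX2 and 3 C/EBPβ peaks in differentiated cells, against 2 RUNX2 peaks and 1 C/EBPβ peak in undifferentiated cells. Its kept RUNX2 pair lay in an intron of the neighbouring Lass3, and it had H3K9Ac at a promoter in differentiated cells only but no H3K36me3 in either state. Adamts12, which cleaves cartilage oligomeric matrix protein, kept both of its intronic RUNX2 peaks and had 4 C/EBPβ peaks in differentiated cells, 1 of the gained ones on a kept RUNX2 peak, against 2 in undifferentiated cells. Its promoter carried H3K4me3 in undifferentiated cells only, while H3K36me3 covered 51.2% of the gene in differentiated cells and 50.6% in undifferentiated cells. Adamts6 had 2 RUNX2 peaks in differentiated cells and 3 in undifferentiated cells, and 6 C/EBPβ peaks in each state, of which 3 were kept. H4K5Ac covered 21.6% of Adamts6 in differentiated cells and 55.6% in undifferentiated cells, and H3K36me3 covered 91.4% in differentiated cells and 92.9% in undifferentiated cells.

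The 5 ADAMTS-like genes had 13 RUNX2 peaks in differentiated cells and 19 in undifferentiated cells, all at Adamtsl1, Adamtsl3 and Adamtsl4. Adamtsl3, a secreted glycoprotein gene of 278757 bp, kept 5 peaks, lost 7 and gained 4, all but 1 of them in its own introns. Its C/EBPβ peaks numbered 7 in differentiated cells and 11 in undifferentiated cells. Of the 5 kept peaks, 4 held a RUNX motif, and 2 of those held 2 each, as printed above. H3K36me3 covered 96.7% of Adamtsl3 in differentiated cells and 97.7% in undifferentiated cells. Adamtsl4, a fibrillin-binding gene, kept 3 of its 4 RUNX2 peaks, including the promoter peak, and had no C/EBPβ peak in differentiated cells and 2 in undifferentiated cells. Its H3K4me3 was called in undifferentiated cells only. Adamtsl1 had 1 RUNX2 and 2 C/EBPβ peaks in differentiated cells, against 3 RUNX2 and 4 C/EBPβ peaks in undifferentiated cells, and H4K5Ac covered 33.6% of it in differentiated cells and 64.5% in undifferentiated cells. Within 20 kb of the TSS its C/EBPβ peaks numbered 1 in differentiated cells and 0 in undifferentiated cells, the reverse direction. Adamtsl5, in contrast, had no peak of either factor and more marks in differentiated cells: H3K4me3 at a promoter in differentiated cells only, H3K9Ac over 54.3% of the body against 8.6% in undifferentiated cells, and H3K36me3 over 60.8% in differentiated cells against 0.0% in undifferentiated cells. With the upper 50% of regions by score no H3K36me3 region was left at Adamtsl5 in either state, so the difference of 0.0 points there compares nothing.

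At the promoters of the set, taken as 1 kb on each side of any TSS, the number of marked genes was nearly the same in both states. H3K4me3 was at 15 genes in differentiated cells, against 40.0% of all genes, and at 15 in undifferentiated cells, against 34.9%. H3K9Ac was at 25 genes in differentiated cells, against 52.4% of all genes, and at 21 in undifferentiated cells, against 49.1%. H4K5Ac was at 24 genes in differentiated cells, against 54.2%, and at 26 in undifferentiated cells, against 55.4%. H3K4me1 was at 31 genes in differentiated cells, against 58.8%, and at 29 in undifferentiated cells, against 57.1%. In each of these 8 counts the exact interval of the set's share included the share over all genes.

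Behind the similar totals a few genes differed in each direction. H3K4me3 was found in differentiated cells only at 2 genes (Mmp28 and Adamtsl5), against 6.54% of all genes, and in undifferentiated cells only at 2 (Adamts12 and Adamtsl4), against 1.46%. H3K9Ac was found in differentiated cells only at 4 genes (Mmp17, Mmp19, Mmp28 and Adamts17), against 3.40%, and in undifferentiated cells only at 0, against 0.156%. H4K5Ac was found in differentiated cells only at 1 gene (Mmp17), against 1.18%, and in undifferentiated cells only at 3 (Mmp16, Adamts16 and Adamtsl2), against 2.41%. H3K4me1 was found in differentiated cells only at 3 genes (Timp4, Mmp17 and Adamts7), against 3.20%, and in undifferentiated cells only at 1 (Mmp1b), against 1.41%. Where H3K4me3 was at a promoter in both states, the widths of all regions that overlapped a promoter of the gene were summed. The sum was smaller in differentiated cells at 10 of 13 members (76.9%), against 60.8% of 7476 genes. It need not rest on the same region in both states. At Mmp11 the sum was 1320 bp in differentiated cells and 5108 bp in undifferentiated cells, while H3K4me3 body cover was 9.0% in differentiated cells and 0.8% in undifferentiated cells. At Timp3, for example, the regions spanned 2669 bp in differentiated cells and 11412 bp in undifferentiated cells, and at Timp2 3770 bp in differentiated cells and 11842 bp in undifferentiated cells. At Adamts5, in the other direction, they spanned 6153 bp in differentiated cells and 3141 bp in undifferentiated cells.

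**Figure D3:**
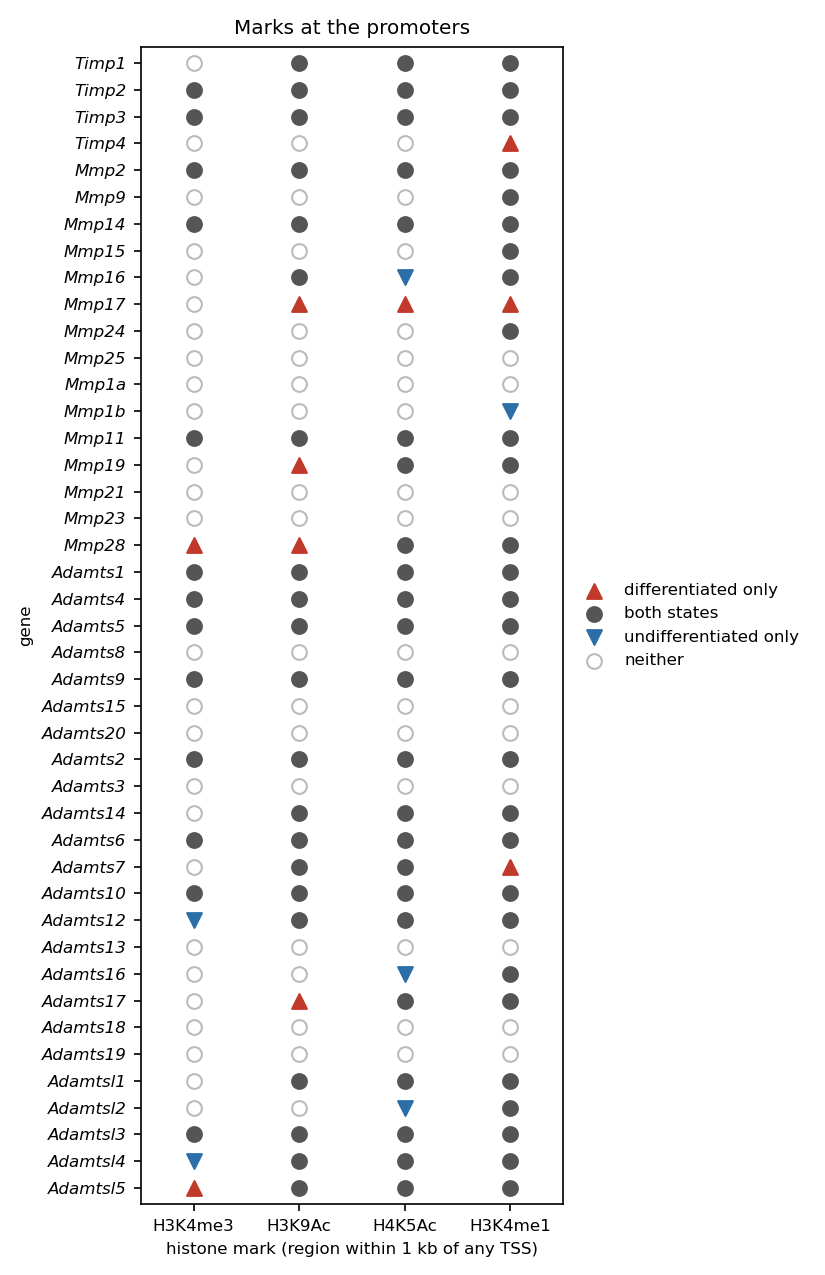
The 4 promoter marks (columns) at each of the 43 genes (rows), as regions within 1 kb of any TSS. Red triangles mark presence in differentiated cells only, grey circles both states, blue triangles undifferentiated cells only and open circles neither. Mmp17 has 3 marks and Mmp28 has 2 marks in differentiated cells only.

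Along the gene bodies H3K9Ac spread further in differentiated cells at several members. Its cover was higher by at least 20 percentage points at 6 genes (14.0%, 5.30 to 27.9), against 3.33% of all genes, and lower by that much at 0, against 0.0849%. The 6 were Timp2, Mmp14, Mmp19, Mmp28, Adamts4 and Adamtsl5. All the H3K9Ac regions of differentiated cells together covered more DNA, as given above, and the part of list size in this count was not tested. H4K5Ac cover was higher by 20 points or more at 2 genes (Mmp14 and Adamtsl5), against 2.07%, and lower at 5 (Timp4, Adamts5, Adamts6, Adamtsl1 and Adamtsl2), against 5.62%. H3K4me1 cover was higher at 2 (Mmp14 and Adamtsl5), against 3.52%, and lower at 1 (Adamts8), against 1.86%.

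H3K36me3 cover differed little between the states at most members, as it did over all genes. Cover of 50% or more was found at 18 genes in differentiated cells, against 40.8% of all genes, and at 17 in undifferentiated cells, against 40.7%. It was 0 at 18 genes in differentiated cells, against 49.9% of all genes, and at 19 in undifferentiated cells, against 49.6%. The other 7 genes in each state lay between, against 9.37% of all genes in differentiated cells and 9.71% in undifferentiated cells. The 2 states were within 5 points of each other at 36 of the 43 genes (83.7%), against 82.9% of all genes. Cover was higher by at least 20 points in differentiated cells at 3 genes (Adamts2, Mmp28 and Adamtsl5), against 2.28% of all genes, and lower at 1 (Timp1), against 2.24%. Median cover was 19.7% in differentiated cells and 19.4% in undifferentiated cells, and the median over all genes was 0.431% in differentiated cells and 1.25% in undifferentiated cells.

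**Figure D4:**
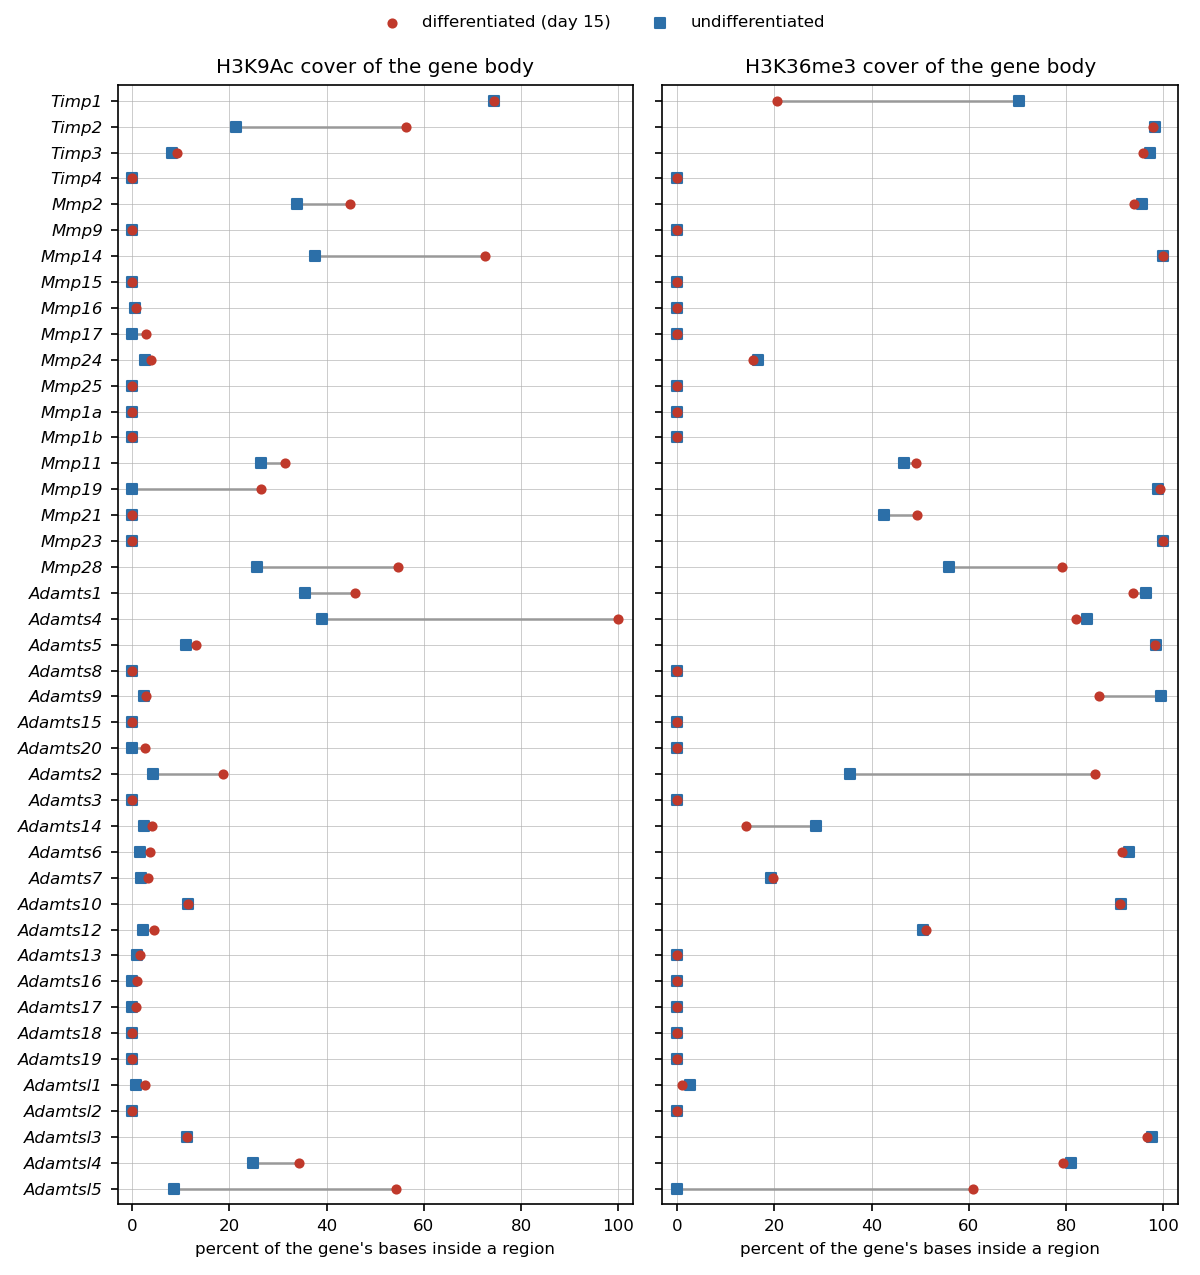
Percent of each gene's bases inside an H3K9Ac region (left) and an H3K36me3 region (right), with differentiated cells as red circles and undifferentiated cells as blue squares joined by a grey line. H3K9Ac is at 100.0% in differentiated cells and 39.1% in undifferentiated cells at Adamts4, and at 54.3% in differentiated cells and 8.6% in undifferentiated cells at Adamtsl5, and H3K36me3 differs by 20 points or more at Timp1, Mmp28, Adamts2 and Adamtsl5.

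Cut into 10 equal bins from the 5′ end, these 4 genes differed in where H3K36me3 differed between the states. In Adamts2 bin 1 was covered to 93.5% in differentiated cells and 89.0% in undifferentiated cells, bin 2 to 90.2% in differentiated cells and 6.29% in undifferentiated cells, and bin 7 to 88.8% in differentiated cells and 0% in undifferentiated cells. In Adamtsl5 bins 4 to 8 were covered to 100% in differentiated cells and to 0% in undifferentiated cells. In Timp1 bins 4 to 7 were covered to 0% in differentiated cells and to 100% in undifferentiated cells, and bin 10 to 100% in both. In Mmp28 bin 5 was covered to 88.3% in differentiated cells and 21.7% in undifferentiated cells.

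**Figure D5:**
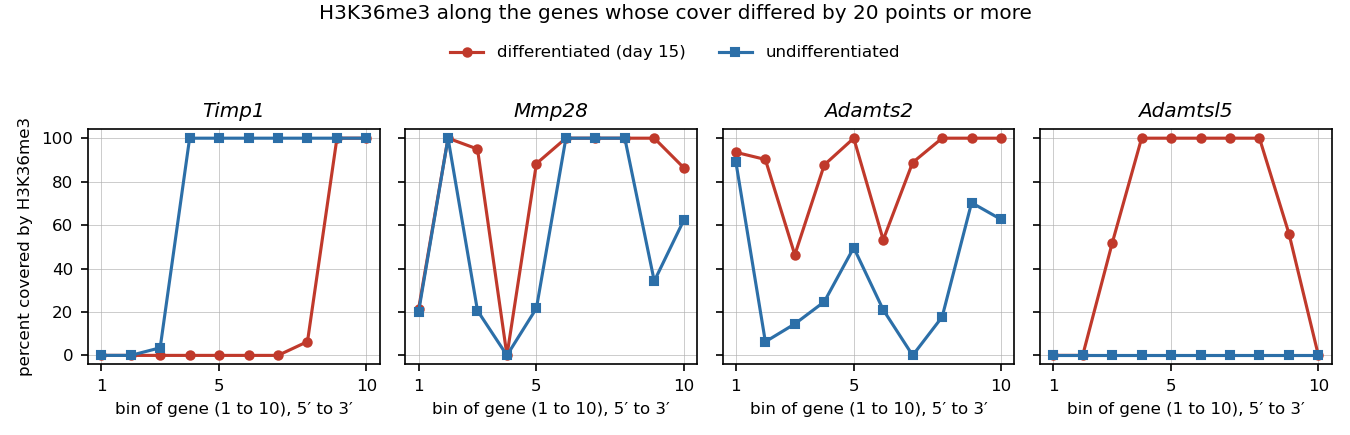
Percent of each of 10 equal bins of the gene, 5′ to 3′, inside an H3K36me3 region at the 4 genes whose cover differed by 20 points or more, with differentiated cells in red and undifferentiated cells in blue. The undifferentiated line of Adamtsl5 stays at 0, and in Adamts2 the lines are closest in bin 1 (93.5% in differentiated cells and 89.0% in undifferentiated cells).

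Neither a peak nor a marked region was found at Mmp1a, Adamts18 and Adamts19, in differentiated or undifferentiated cells. The share of all genes with neither was not counted, so these names carry no comparison. A list of 30 related genes of pericellular proteolysis was made of activators, receptors, other inhibitors, ADAM proteases and ADAMTS substrates. In differentiated cells 14 of them had RUNX2 (46.7%, against 37.2% of the set and 14.9% of all genes), with 17 peaks. In undifferentiated cells 13 had it (43.3%, against 51.2% of the set and 27.2% of all genes), with 23 peaks. Fewer peaks in differentiated cells were counted at 6, against 19.7% of all genes, and more at 3, against 2.91%. Those with most RUNX2 peaks in undifferentiated cells were Thbs1 and Lrp1. Thbs1, whose product binds several matrix proteins, had 3 RUNX2 peaks in differentiated cells and 5 in undifferentiated cells. Lrp1, an endocytic receptor that clears proteases, had 2 in differentiated cells and 4 in undifferentiated cells. C/EBPβ had 32 peaks on that list in each state.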

How the data were processed

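Chromatin immunoprecipitation lists of 7 antibodies in 2 states of MC3T3-E1 cells were used. Per the submitters' processing notes, Bowtie and HOMER were used on build mm9. The tool versions and calling thresholds were not given in the sources used here. The deposited lists give start and end positions, and each deposited list holds peaks that the authors merged over replicates, per the peak names in the files. The deposited score was 0 for all RUNX2 and C/EBPβ peaks, whose width was fixed (1 peak was clipped at a chromosome start), and was used only to rank regions of a histone mark within a list. The 2 input samples were not used. The differentiated input is labelled as given 100 nM 1,25(OH)2D3, the label of the differentiated H3K36me3 sample is garbled, so that its state was taken from its title and source name, and the labels' protocols write H3K5Ac where the antibody label has H4K5Ac.

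Genes and TSSs came from GENCODE vM1 (NCBIM37, mm9), protein-coding, without the mitochondrial chromosome. Peaks went to the nearest TSS within 100 kb. A promoter was 1 kb on each side of any TSS. Gene body cover is the percent of bases from gene start to end inside a region, and a difference was called at 20 percentage points. Intervals are exact Clopper-Pearson 95% intervals and cover counting error only. The DNA nearest to a TSS was summed up to 100 kb. No test between states was made, since each state has 1 list per antibody. The functions were tested on simulated data. Python 3.11.15, NumPy 2.4.6, SciPy 1.17.1 and samtools 1.23.1 were used. The members and lists were chosen with earlier results of these data known. Genes named are the 4 inhibitors, a fixed group of well-known enzymes, genes with 3 or more RUNX2 peaks in a state, a gained or a promoter RUNX2 peak, or an H3K36me3 difference of 20 points; genes named for an H3K9Ac, H4K5Ac or H3K4me1 difference or for other promoter marks were picked with their values in view. The rule for printed sequences also required here that a peak touch no exon. Alternatives were other limits and rules for assignment, sharing, promoters and cover.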

Additional observations from a re-analysis of the deposited data

How the results depend on the processing

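With peaks limited to 20 kb from the nearest TSS, RUNX2 was at 10 genes with 17 peaks in differentiated cells and at 14 genes with 27 peaks in undifferentiated cells, and C/EBPβ had 21 peaks in differentiated cells and 27 in undifferentiated cells, since fewer peaks qualify. Counting peaks in the gene body plus 10 kb, 3 genes had more RUNX2 peaks in differentiated cells. Under that rule Mmp2 had 2 RUNX2 peaks in differentiated cells and 3 in undifferentiated cells (a difference of -1) and Timp2 had 6 in differentiated cells and 5 in undifferentiated cells (a difference of 1), the reverse of the counts by nearest TSS. The RUNX2 count was then the same in both states at 7 genes that differ by nearest TSS, and the C/EBPβ count at 4 (Mmp28, Adamts5, Adamts9 and Adamts10). Within 20 kb this held for RUNX2 at 3 (Adamts5, Adamts8 and Adamts20) and for C/EBPβ at 4 (Adamts5, Adamts10, Adamts12 and Adamtsl3), and with peaks within 500 bp merged for RUNX2 at 1 (Adamts8). C/EBPβ counts also reversed at Adamtsl1 within 20 kb and at Adamts2 when TSSs of every gene biotype competed, with 1 peak in differentiated cells and 0 in undifferentiated cells in both cases. With the upper 50% of regions by score, promoter H3K4me3 was at 8 genes in each state, and median H3K36me3 cover was 0 in both. Among those regions none was left at Adamtsl5 or Timp1 in either state, so their difference in H3K36me3 cover (0.0 points each) compares nothing. Adamts2 differed by 30.8 points and Mmp28 by 21.9 points. Over the 3′ 50% of the gene body median H3K36me3 cover was 39.3% in differentiated cells and 33.2% in undifferentiated cells and 2 genes were lower by 20 points. With a step of 10 points 3 genes were lower. The kept share of RUNX2 peaks ranged from 44.4% to 57.7% and that of C/EBPβ peaks from 32.2% to 48.1% over all alternatives. Over all genes the RUNX2 share ranged from 33.6% to 39.7% and was below the set's share under each alternative. The set's interval, which covers counting error only, included the share over all genes within 20 kb and not under the other assignment and sharing rules. Leaving out Adamtsl3, an alternative chosen after seeing the data, left 30 RUNX2 peaks in differentiated cells and 40 in undifferentiated cells. No paired analysis was possible because each antibody and state has 1 merged list.

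Depth, background and enrichment cannot be seen in these lists, and the RUNX2 and C/EBPβ lists give no peak height, so the size of the signal difference behind a lost or gained peak was not measured. Assignment by nearest TSS does not show which gene a site acts on. H3K36me3 cover of short genes inside or beside others (Timp1, Mmp21, Mmp23) cannot be told apart from the neighbour's. Other members shared an H3K36me3 region with a neighbouring gene too, among them Timp2, Mmp2, Mmp11, Mmp14, Mmp19, Mmp24, Adamts7 and Adamtsl4. Mmp28 and Adamts2 did so in differentiated cells only. The cover of these members was not separated from the neighbour's either. The matrix was removed from the differentiated cultures alone, and this cannot be told apart from differentiation.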
